A study of Mus musculus with 6 samples.

Results

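Ribosomal protein mRNAs were followed as RNA fragments in small RNA libraries of NIH 3T3 cells, an immortalised line of mouse embryo fibroblasts. The members were all 83 gene symbols of the count tables that have the form of a cytosolic ribosomal protein gene (Rpl or Rps with a number and an optional a, x, l or y suffix, or Rplp0 to Rplp2), with Rpl13a left out, out of 23420 genes in all. They comprise 51 genes of the large subunit and 32 of the small subunit. Rpsa and Fau also encode ribosomal proteins but do not have this form.

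All 6 libraries came from cells transfected with the pEGFP-NXF3 plasmid, which encodes NXF3 tagged with the green fluorescent protein EGFP. NXF3 belongs to the nuclear export factor family, and the series title names the localisation of snoRNAs, the small RNAs of the nucleolus. The 3 input libraries hold RNA taken with no antibody, and the 3 NXF3 pulldown libraries hold RNA recovered with the anti-GFP antibody, from 3 independent experiments. RNA products of 30 to 375 nucleotides were sequenced after 14 PCR cycles, so a read of a ribosomal protein mRNA comes from a fragment and does not measure the intact transcript. No pulldown from cells without the tagged bait was analysed here, and each value compares how pulldown RNA and input RNA are made up.

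Ribosomal proteins are made in the cytoplasm, imported into the nucleolus and assembled there with ribosomal RNA into the small and the large subunit. Their mRNAs are among the most abundant of growing cells, and most of them begin with a pyrimidine tract that places their translation under growth control. In mammals the introns of many ribosomal protein genes carry snoRNAs, which are released from the spliced intron and guide the chemical modification of ribosomal RNA. Such a host gene therefore yields an exonic mRNA and an intronic small RNA from the same primary transcript.

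The host genes matter here because the snoRNAs of their introns are abundant in the same libraries. The sequences below are those of the snoRNAs with many reads in Rpl3 and Rpl23a and of snoRNAs in Rps3a1 and Rps3, which were among the members with enough reads to test. They are from GENCODE M21 on mouse build GRCm38 and are written 5′ to 3′ as DNA. The counts were made on build mm9, and these positions are not those of the count tables. Capitals mark the letters TGATGA (box C) and the last CTGA (box D), the paired motifs bound by the proteins of a box C/D particle, searched on the transcribed strand alone.
Snord43, intron of Rpl3, chr15:80082847-80082954, minus strand: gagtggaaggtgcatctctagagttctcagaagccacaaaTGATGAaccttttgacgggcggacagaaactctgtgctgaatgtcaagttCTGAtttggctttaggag
Snord83b, intron of Rpl3, chr15:80078498-80078591, minus strand: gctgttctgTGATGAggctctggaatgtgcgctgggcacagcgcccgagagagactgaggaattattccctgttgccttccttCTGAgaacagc
Snord4a, intron of Rpl23a, chr11:78181686-78181756, minus strand: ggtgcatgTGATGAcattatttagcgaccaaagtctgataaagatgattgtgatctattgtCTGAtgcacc
Snord73a, intron of Rps3a1, chr3:86138791-86138858, minus strand: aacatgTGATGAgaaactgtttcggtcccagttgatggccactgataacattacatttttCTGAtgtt
Rnu73b, intron of Rps3a1, chr3:86140618-86140688, minus strand: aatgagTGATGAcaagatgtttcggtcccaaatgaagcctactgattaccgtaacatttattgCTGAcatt
Snord15b, intron of Rps3, chr7:99479563-99479707, minus strand: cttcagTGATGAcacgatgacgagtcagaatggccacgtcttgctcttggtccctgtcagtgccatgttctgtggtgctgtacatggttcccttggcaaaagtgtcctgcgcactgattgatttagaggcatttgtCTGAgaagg
TGATGA followed by CTGA occurs in 23.5% of 1456 snoRNA sequences of that annotation, which include the H/ACA class, and in 12 of the 29 counted snoRNAs that lie within members. It does not occur in Snord16a of Rpl4.

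Gene counts per library ran from 769570 in pulldown 1 to 6946284 in pulldown 2, and 22.2% to 35.6% of the reads in a table were assigned to a gene. Where a gene had 0 counts, the limit was 3 counts, between 4.32e-05% and 0.00039% of the counts of 1 library. CPM are read counts scaled to a common library size, here after the TMM correction between libraries. Pulldown 1 stood apart: its log2 CPM correlated with the other libraries at 0.883 to 0.905, against 0.926 to 0.952 for pairs without it, and protein-coding genes other than the transfected Nxf3 took 3.83% of its gene counts against 1.11% to 2.22% elsewhere. The bait transcript Nxf3 had 2343, 2217 and 2028 counts in the inputs and 1601, 6559 and 2426 in the pulldowns (log2 fold 0.53, adjusted p = 0.968, edgeR). All 10 fibroblast markers had reads, adipocyte markers had 3 reads in all, leukocyte markers 2, and no epithelial marker had any.

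Members gave few reads but were widely detected. Together they had 2596 counts among 20641036, or 0.0126% of all gene counts. A read was found for 73 of the 83 members (88.0%), against 55.1% of all 19331 protein-coding symbols, and 27 members had a read in every library. The median member had 10 counts over all 6 libraries. Per kilobase of coding sequence, the median level was 1.21 CPM in 82 members with a known coding length and 0.0589 CPM in 19012 other protein-coding genes.

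The reads were concentrated on a few members. Rps3a1, a small subunit protein at the platform near the exit of the mRNA channel, alone held 26.2% of the members' counts and had 47.6 CPM per kilobase of coding sequence, rank 15 of 19094 protein-coding genes. Rpl4, which lines the exit tunnel of the nascent peptide, held 10.9% and had 12.5 CPM per kilobase. Rpl41 ranked between these on this scale, at 25.4 CPM per kilobase from 32 counts, with a coding sequence of 75 nucleotides, the shortest of the members; the coding length leaves out the untranslated parts. Rpl8 followed at 11.8, Rps14 at 11.1 and Rplp0 at 9.29 CPM per kilobase.

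No read was assigned to 10 members, among them Rpl10l, Rpl11, Rpl26, Rpl35, Rpl35a, Rpl36al, Rpl3l, Rps29 and Rps4y2, which allows each up to 1.45e-05% of all gene counts. Rpl10l and Rpl3l are paralogs with tissue-restricted use in testis and in muscle, whereas Rpl11, Rpl26, Rpl35, Rpl35a and Rps29 are parts of every ribosome. Ribosomal protein genes have many near-identical processed copies in the genome, and the sources used here do not say how reads shared by such copies were placed. Of the reads of a library, 0% were listed as aligned to more than 1 place and 6.75% to 9.18% as too low in alignment quality. The 6 pseudogene symbols of this family in the tables had 4 counts in all. Levels of single members, and a listing at 0, are uncertain for that reason.

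As a share of all gene counts, the members took 0.0119%, 0.0169% and 0.0171% of inputs 1 to 3 and 0.0292%, 0.00875% and 0.0097% of pulldowns 1 to 3. The mean was 0.0153% ± 0.0029 for the inputs and 0.0159% ± 0.0116 for the pulldowns (SD, n = 3 each). Pulldown 1 lay above every input and the other pulldowns lay below every input, so the groups overlapped and the difference in means of 0.000609 percentage points was far smaller than the spread. The exact Clopper-Pearson 95% interval was 0.0255% to 0.0333% in pulldown 1 and 0.00807% to 0.00948% in pulldown 2, for counting error only. The libraries carried no stated molecular identifiers, so PCR copies of a molecule count as separate reads.

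Within protein-coding counts the libraries lay closer together. The members took 0.824%, 0.854% and 0.768% of these counts in the inputs and 0.763%, 0.786% and 0.561% in the pulldowns, with Nxf3 left out. The means were 0.815% ± 0.0436 for the inputs and 0.703% ± 0.124 for the pulldowns (SD, n = 3 each). Pulldowns 1 and 2 lay beside input 3, and pulldown 3 was the lowest library. This share was chosen after the data were seen, and the high share of protein-coding reads in pulldown 1 moves with the share of all gene counts given above.

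**Figure D1:**
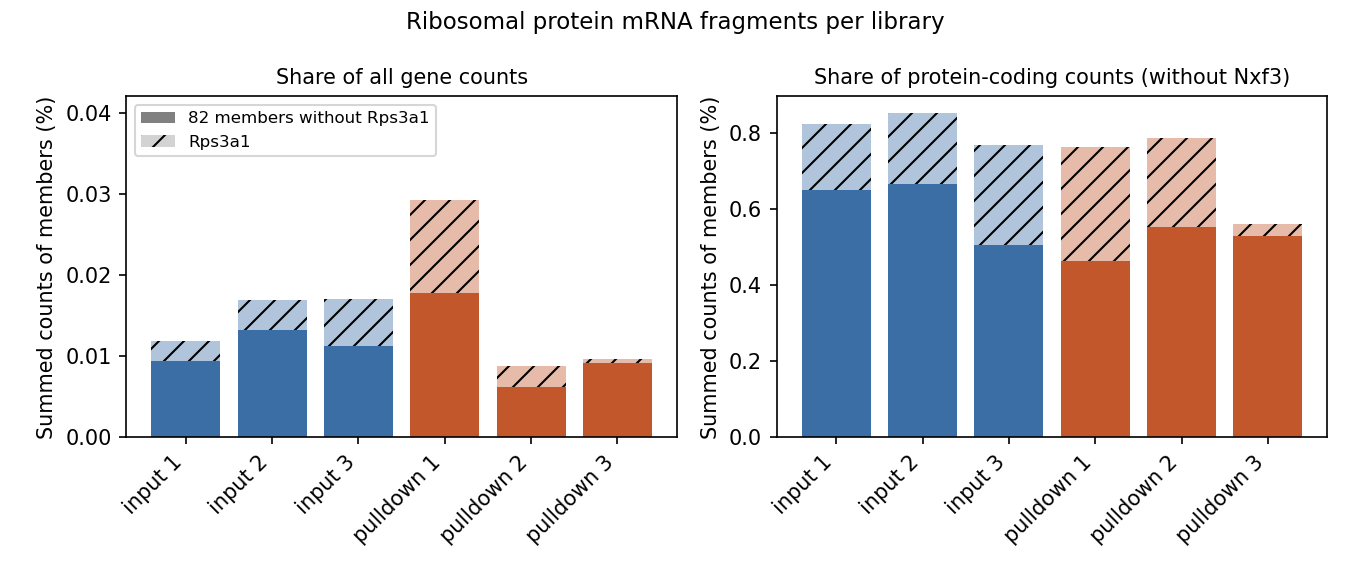
Summed counts of the 83 members in each library, as a percent of all gene counts (left) and of protein-coding counts without Nxf3 (right), with the hatched part for Rps3a1. Pulldown 1 is the tallest bar on the left at 0.0292%, while on the right the libraries run from 0.561% to 0.854% and the hatched part is smallest in pulldown 3.

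Gene by gene, pulldown was compared with input in edgeR's quasi-likelihood test over 1852 genes that passed a filter on low counts. Of the 83 members, 9 passed the filter, and they held 65.6% of the members' counts. None of the 9 was called at an adjusted p of 0.05, as 0% of all tested genes were called higher and 0.054% lower. At an unadjusted p under 0.05, 0 members were higher (2.27% of all tested genes) and 2 were lower, Rplp0 among them (3.35% of all tested genes). DESeq2 and limma-voom called 0 members as well. The median log2 fold was -0.24 over the 9 members and 0.00 over all tested genes, from -1.14 for Rplp0 to 0.40 for Rpl4. In 7 of 9 members the log2 fold was negative, against 50.5% of all tested genes. The median member had an unadjusted 95% interval of 0.71 log2 units to either side. A smaller fold of such a member would not pass even without adjustment, and the adjusted test was stricter. On simulated counts, 27% of genes changed by 1 log2 unit were called at an adjusted p under 0.05.

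Rplp0, the base of the stalk through which the large subunit recruits translation factors, had the most negative log2 fold of the members. It had 9.36, 16.0 and 11.6 CPM in inputs 1 to 3, and 4.67, 5.44 and 5.95 CPM in pulldowns 1 to 3. On this scale, after TMM factors from 0.609 in pulldown 2 to 1.95 in pulldown 1, the groups did not overlap. The highest pulldown lay well under the lowest input. As a share of all gene counts they did overlap: pulldown 1 (7 of 769570) lay above input 1 (27 of 3828642). The log2 fold was -1.14 (SE 0.30, 95% interval -1.78 to -0.50, unadjusted p = 0.0019, adjusted p = 0.348, edgeR), a 2.21-fold lower level that did not pass the correction. With total-count scaling it was -1.18 (SE 0.70, unadjusted p = 0.0899, edgeR). Both groups are RNA fractions of transfected cultures, so the value is a share of the pulldown RNA relative to input and not a level per cell. Its stalk partners Rplp1 and Rplp2, which bind as dimers to Rplp0, did not pass the filter. Rplp1 had 5, 1 and 2 counts in the inputs and 1, 3 and 1 in the pulldowns, and Rplp2 had 3, 4 and 0 against 1, 2 and 3.

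In the small subunit, Rps14 lay in the same direction as Rplp0. Rps14, a platform protein whose loss is linked to the anaemia of the 5q- syndrome, had 5.20, 7.0 and 6.24 CPM in the inputs and 3.33, 3.31 and 4.96 CPM in the pulldowns. The highest pulldown of Rps14 lay just under the lowest input (log2 fold -0.64, SE 0.32, unadjusted p = 0.064, adjusted p = 0.825, edgeR). As a share of all gene counts, pulldown 1 (5 of 769570) lay above input 1 (15 of 3828642) here too. Rplp0 and Rps14 were among the 3 of 9 members with every pulldown below every input in CPM after TMM, a pattern found in 6.16% of all tested genes. No member had every pulldown above every input on that scale (4.27% of all tested genes).

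Rps3 overlapped between the groups. This protein, at the entry of the mRNA channel, had 7.28, 8.49 and 4.23 CPM in the inputs and 4.67, 6.86 and 3.97 CPM in the pulldowns (log2 fold -0.24, SE 0.35, adjusted p = 0.968, edgeR). It rested on 105 counts in all.

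Rps3a1 was the most variable of the 9. It had 33.3, 34.98 and 51.0 CPM in the inputs and 58.7, 42.6 and 5.62 CPM in the pulldowns. Pulldowns 1 and 2 lay within or above the input range, and pulldown 3, with 17 counts, lay far under every other library. The log2 fold of -0.18 (SE 0.59, adjusted p = 0.993, edgeR) had a 95% interval from -1.45 to 1.08. Its sign rested on single libraries: without pulldown 3 the log2 fold was 0.38, and without input 3 it was 0.04.

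The large subunit members Rpl4, Rpl8 and Rpl32 overlapped between the groups too. Rpl4 had 17.3, 11.5 and 11.8 CPM in the inputs and 18.7, 18.9 and 16.2 CPM in the pulldowns. Input 1 lay among the pulldowns, and the other inputs lay lower (log2 fold 0.40, SE 0.28, adjusted p = 0.947, edgeR). Rpl8, a protein close to the peptidyl transferase centre, had 11.4, 10.5 and 7.57 CPM against 6.67, 8.04 and 10.6 CPM (log2 fold -0.17, SE 0.29, adjusted p = 0.988, edgeR). Rpl32 had 2.43, 4.0 and 2.90 CPM against 4.67, 3.79 and 2.98 CPM (log2 fold 0.29, SE 0.37, adjusted p = 0.968, edgeR).

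**Figure D2:**
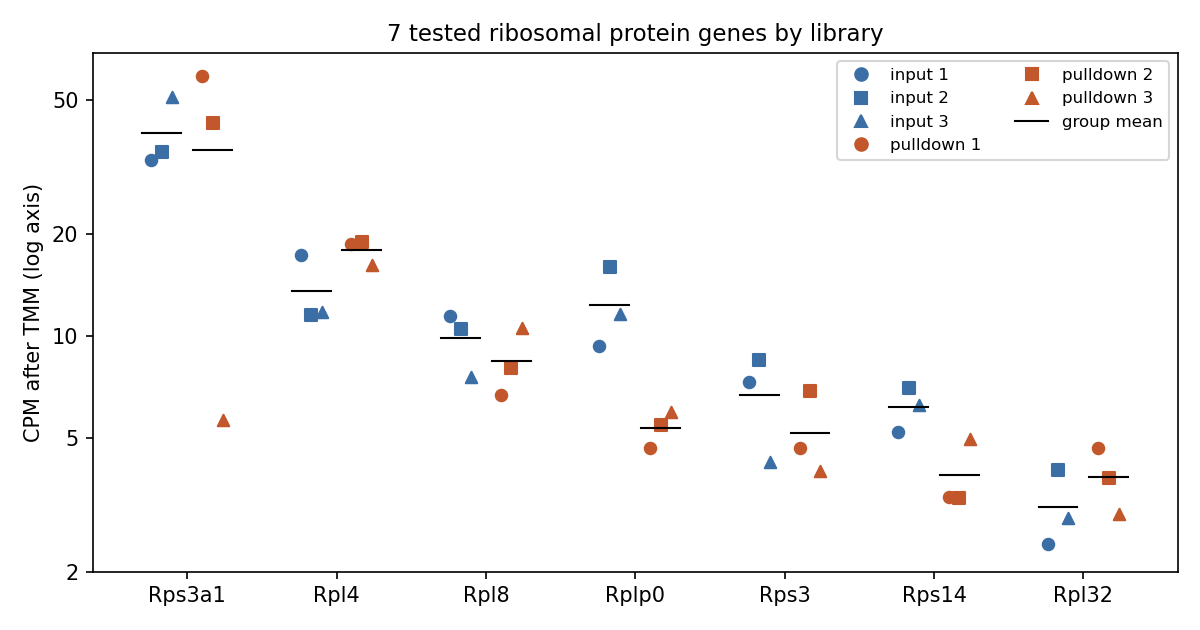
CPM after TMM (log axis) of 7 of the 9 tested members in each library, inputs in blue and pulldowns in orange, with a bar at each group mean. The pulldown points of Rplp0 and Rps14 all lie below the input points, and pulldown 3 of Rps3a1 lies at 5.62 CPM, far from its other libraries.

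**Figure D3:**
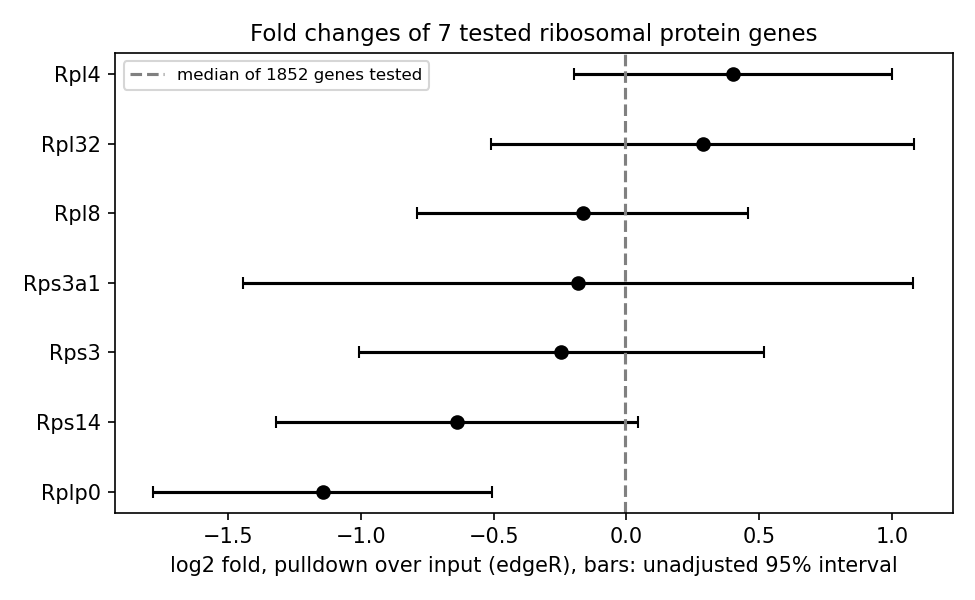
The log2 folds of pulldown over input for 7 of the 9 tested members with unadjusted 95% intervals, and the median of all 1852 tested genes as a dashed line. The interval of Rplp0 does not reach the dashed line, and no member passed after adjustment over all tested genes.

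The 64 members with reads below the filter held 893 counts, of which the inputs gave 175, 115 and 190 and the pulldowns 64, 208 and 141. On the CPM scale their sum was 53.5 ± 9.79 for the inputs and 46.2 ± 3.30 for the pulldowns (SD, n = 3 each), with overlapping groups. Of these, Rps15a, a small subunit body protein, had the most counts, with 6, 7 and 31 in the inputs and 0, 12 and 6 in the pulldowns. Rps26, which contacts the mRNA near its exit, had 9, 10 and 6 against 3, 9 and 8, and Rpl7 had 5, 4 and 7 against 3, 12 and 13. Rps20, a snoRNA host, had 4, 4 and 8 against 3, 7 and 8. Rpl7a, another host, had 10, 4 and 6 against 0, 11 and 2, and Rpl22, with the same total, had 7, 2 and 5 against 5, 8 and 6. With so few reads in a library, none of these was read as higher or lower in a group.

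Without a filter on low counts, 7 of 73 members had an unadjusted p under 0.05 in edgeR, 6 lower (1.91% of all 12025 genes) and 1 higher (1.85% of all genes), and none passed adjustment (adjusted p of 0.384 or above). Besides Rplp0 and Rps15a, these included Rpl39, at the exit of the peptide tunnel, with 1, 5 and 5 counts in the inputs and 0, 0 and 1 in the pulldowns, Rps12 with 2, 1 and 3 against 0, 0 and 0, Rpl36a with 4, 0 and 2 against 0, 0 and 0, and Rpl12 with 0, 1 and 1 against 0, 5 and 6. They were named after their values were seen.

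Paralogs had few reads. Rpl7l1, a relative of Rpl7 that acts in ribosome assembly, had 29 counts, Rpl39l had 8 counts, Rpl22l1 5 and Rps27l 3. Rpl5, which joins Rpl11 and the small ribosomal RNA of the large subunit in a particle that can bind Mdm2, had 9 counts while Rpl11 was listed at 0. Rps27a, made as a fusion with ubiquitin, also had 9.

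The members were then divided into hosts of snoRNAs and other members. A list written from known host genes named 25 members, and the positions of snoRNAs in GENCODE M21 named 28, which included those 25 and added Rps3a1, Rpl6 and Rps16. Rps3a1, with the most reads, thus stood among the other members by list and among the hosts by position. Listed hosts had 144, 94 and 162 counts in the inputs and 61, 220 and 127 in the pulldowns. The other members had 311, 225 and 509 against 164, 388 and 191.

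The log2 ratio of listed hosts to other members, taken within each library, was -1.11, -1.26 and -1.65 in the inputs and -1.43, -0.82 and -0.59 in the pulldowns. The means were -1.34 ± 0.28 and -0.94 ± 0.43 (SD, n = 3 each), a difference of 0.40 with overlapping groups. The difference was 0.22 without pulldown 3, 0.24 without input 3 and 0.64 without pulldown 1. As a difference of mean log2(CPM + 1) between hosts and other members it was 0.04. With hosts taken by position the ratio was 0.18, 0.14 and 0.50 in the inputs and 1.03, 0.99 and -0.25 in the pulldowns, a difference of 0.31, and pulldown 3 lay under every input. No test was made on these sums over members.

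Without Rps3a1 the ratio separated the groups. For listed hosts it was -0.58, -0.72 and -0.79 in the inputs and -0.32, 0.08 and -0.45 in the pulldowns, a difference of 0.47. For hosts by position the difference was 0.47 as well, again with every pulldown above every input. This separation rested on Rpl4. Without Rpl4 as well, the difference was 0.25 and the groups overlapped, and over the members below the filter alone it was -0.03.

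**Figure D4:**
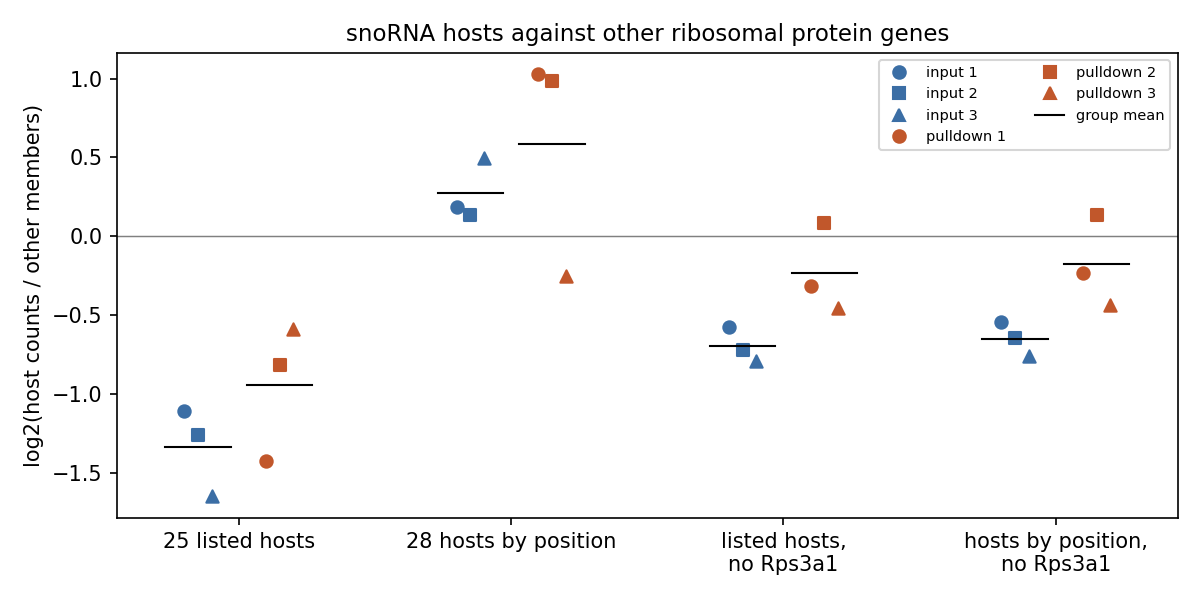
The log2 ratio of summed host counts to summed counts of other members in each library, for hosts by list and by position, with and without Rps3a1, and a bar at each group mean. The 3 pulldowns lie above the 3 inputs in the pairs without Rps3a1 and are mixed with them in the pairs that include it.

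The reads counted to a host and those counted to its intronic snoRNAs differed by up to several orders of magnitude. The annotation places 52 snoRNAs within members, of which 29, in 22 hosts, have a symbol in the tables. These 29 took 33.8% ± 4.22 of all gene counts of an input and 34.2% ± 6.93 of those of a pulldown (SD, n = 3 each). All 28 hosts by position had 1502 counts, against 7432561 for the 29 snoRNAs. Of the 52 snoRNAs, 1 lies over an exon of a protein-coding transcript of its host, Snora7a in Rpl32, and 27 lie over an exon of a transcript of another type, such as one that retains the intron. Whether reads of a snoRNA reached a host's own count was not tested.

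The gap was wide in Rpl3. Rpl3 had 4, 2 and 11 counts in the inputs and 2, 10 and 3 in the pulldowns, and its Snord43 and Snord83b gave 121909 reads for each read of Rpl3 over all libraries. Rpl23a had 9 counts in all and its 3 counted snoRNAs 353218. Rpl10 and Rps13 were the 2 hosts of the 22 whose own reads were not fewer than those of the snoRNA, with 9 reads for Rpl10 and 7 for Snora70, and 12 reads for Rps13 and 0 for Snord14a.

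The tested hosts named here had smaller ratios of snoRNA to host reads than Rpl3. Over all libraries the ratio was 117 for Rps3a1, 104 for Rps3, 29.0 for Rpl4 and 7.87 for Rpl32. Within the libraries Rps3a1 did not follow its snoRNAs. Snord73a gave 174, 87.9 and 40.0 reads per Rps3a1 read in the inputs and 11.9, 147 and 479 in the pulldowns, so the libraries with the lowest and the highest ratio were both pulldowns. For Snora7a and Rpl32 the range was narrower, 6.86, 7.88 and 8.23 in the inputs and 4.86, 10.9 and 5.11 in the pulldowns.

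**Figure D5:**
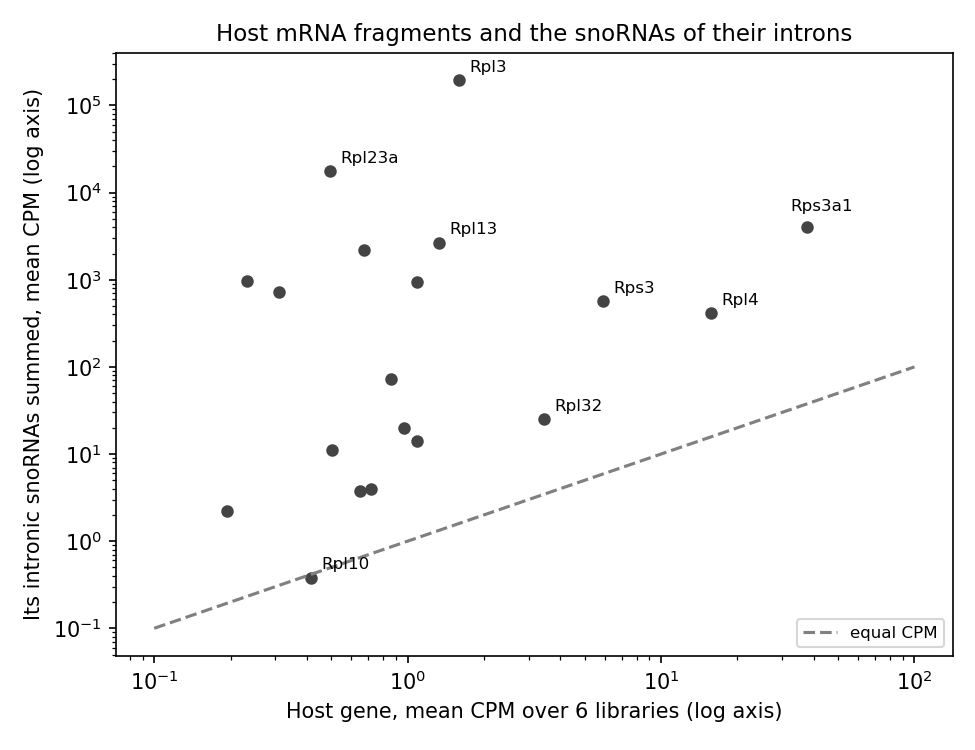
Mean CPM over the 6 libraries of host genes with a counted snoRNA (horizontal, log axis) against that of their counted intronic snoRNAs summed (vertical, log axis), with a dashed line at equal CPM; not every host is drawn. Rpl3 lies at the top and Rpl10 close to the line; Rps13 is not drawn because its snoRNA had 0 counts.

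Hosts and their snoRNAs had these log2 folds side by side in the same fit, none of which passed (adjusted p of 0.917 or above for the snoRNAs, edgeR). Rpl4 had 0.40 and Snord16a -0.33. Rps3a1 had -0.18, Snord73a -0.17 and Rnu73b -0.16. Rps3 had -0.24, Snord15a -0.19 and Snord15b 0.21. Rpl32 had 0.29 and Snora7a 0.16. Of the 26 tested snoRNAs within members, 15 had a negative log2 fold, with a median of -0.12.

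Other genes of the ribosome and of translation gave 0 calls in either direction as well. Among other mRNAs known for a 5′ pyrimidine tract, such as those of elongation factors, 9 of 17 listed genes were tested, 5 with positive and 4 with negative log2 folds and a median of 0.01. Gnb2l1, the scaffold protein RACK1 of the small subunit, had 108, 106 and 214 counts in the inputs and 63, 100 and 44 in the pulldowns (log2 fold -0.81, SE 0.41, unadjusted p = 0.0683, adjusted p = 0.825, edgeR). For Nap1l1, a histone chaperone, the value was 0.57 (SE 0.40, adjusted p = 0.947, edgeR). Of 21 ribosome assembly genes, 8 were tested, 6 with positive and 2 with negative log2 folds and a median of 0.28. Nolc1, a nucleolar chaperone of snoRNA particles, had 8, 4 and 11 counts in the inputs and 4, 26 and 12 in the pulldowns (log2 fold 0.92, SE 0.39, unadjusted p = 0.0344, adjusted p = 0.825, edgeR), and Gnl3, the nucleolar GTPase nucleostemin, stood at 0.81 on the same scale (SE 0.41, adjusted p = 0.825, edgeR).

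Abundant mRNAs of other functions and fibroblast markers served for comparison. Of 17 abundant mRNAs, 11 were tested, 7 positive and 4 negative, with a median of 0.13 (Ldha, a glycolytic enzyme, -0.78, and Ftl1, a ferritin chain, 0.38, both with adjusted p of 0.825 or above, edgeR). Of 10 fibroblast markers, 8 were tested, 3 positive and 5 negative, with a median of -0.14. Lgals1, galectin-1, was the lowest of these that the rule named, with a log2 fold of -0.78 (SE 0.29, unadjusted p = 0.0177, adjusted p = 0.825, edgeR), and Sparc, a matrix protein, had -0.54 (SE 0.31, adjusted p = 0.912, edgeR). The summed share of these markers was 0.0264% to 0.0364% in input and 0.0164% to 0.0682% in the pulldown. Their part in the members' values was not tested. Mitochondrial ribosomal proteins, encoded in the nucleus for a separate ribosome, had 702 counts over 76 genes and none to test, and the 3 ribosomal protein genes whose symbols do not have the form of the members had 17 counts together.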

How the data were processed

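Raw read counts per gene symbol were used as the authors deposited them, 1 table per library. The file names and summary lines show removal of rRNA reads and counting with HTSeq-count. Per the submitters' processing notes, Bowtie and Partek were used with build mm9. The sources used here give no versions, counting mode, strand setting or annotation, so reads of overlapping or antisense genes cannot be told apart. The 5 summary lines were left out of library sizes.

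The members, the gene lists and the tests were chosen with earlier results of these data known. Every member past the filter was to be named, with the 5 most counted members and 3 most counted hosts below it, members without a read, the 2 tested genes with the smallest p of each other list, and Nxf3. Some of these are not reported here. The marker lists were of fibroblasts, adipocytes, epithelial cells and leukocytes.

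Pulldown was tested against input with edgeR 4.0.16 (R 4.3.3), using TMM, filterByExpr with a minimum count of 10, its quasi-likelihood F test over all 6 libraries, and Benjamini-Hochberg adjustment over 1852 genes at 0.05. Standard errors and 95% intervals come from the F statistic. DESeq2 1.42.0, limma-voom (limma 3.58.1), other scalings and filters, a replicate block and leaving out each library were alternatives. On counts simulated for this comparison over 1852 genes, 98% of genes changed by 3 log2 units and 27% of those changed by 1 were called. Of the unchanged genes, 10 were called as well. The simulation built in no other difference in make-up between libraries, whereas the TMM factors of the data ran from 0.609 to 1.95. Coding lengths are the longest CCDS coding sequence of a symbol in GENCODE M21, without the stop codon; 82 of 83 members matched. Hosts by position hold a snoRNA on the same strand within the gene. Nothing says how far the 3 experiments differ in culture, so p-values measure the spread between these libraries. The labels give no day or run.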

Additional observations from a re-analysis of the deposited data

How the results depend on the processing

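No member was called in either direction under any alternative, including DESeq2, limma-voom, no filter and the fits without single libraries (0 to 0 members in each direction), and the smallest adjusted p of a member in any of them was 0.191, for Rplp0 with the replicate block. The signs of 8 of the 9 tested members held in every alternative in which they were tested, and the filter at a mean count of 50 left Rps3a1 alone; Rplp0 ranged from -1.28 to -0.93, with adjusted p up to 1.00. Rps3a1 changed sign with total-count scaling (0.22), with a filter at a mean count of 50 (0.053), without input 3 (0.04) and without pulldown 3 (0.38), and was -0.70 without pulldown 1. With the replicate block 0 members were higher and 0 lower, while over all genes the block gave 1 higher and 3 lower. The correlations of deviations of same-numbered libraries were 0.03, 0.07 and 0.14, and those of other pairs ran from -0.10 to 0.03. Every library correlated best with its own number, for input 1 only narrowly (0.0304 against 0.0294 with pulldown 2). All were weak, at most a hint from the data and not from the labels. The difference in summed share (0.000609 points) was -0.0851 points of counts outside small RNAs, Gas5 and Rn45s, -0.112 points of protein-coding counts without Nxf3, and -0.0913 points of the latter without Rps3a1. These have other denominators, and all are negative. Without Rps3a1, on all gene counts, it was -0.000226, with the sign turned. It ran from -0.00606 without pulldown 1 to 0.00418 without pulldown 2. The host ratio difference (0.40) was -0.032 over members below the filter and 0.04 as a difference of mean log2(CPM + 1), and ran from 0.22 without pulldown 3 to 0.64 without pulldown 1. The shares of protein-coding counts and of the tested members, the host ratio by position without Rps3a1, the ratio without Rps3a1 and Rpl4, and that over members below the filter were added after seeing the data, and the rest had been listed earlier. Low counts set the limit: 74 members did not pass the filter, and 31 had 1 to 9 reads over all libraries.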

Other observations

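The balance between the subunits moved with Rps3a1. The log2 ratio of large to small subunit counts was -0.10, -0.17 and -0.71 in the inputs and -0.51, -0.13 and 0.61 in the pulldowns, with overlapping groups. Without Rps3a1 it was 0.66, 0.60 and 0.45 in the inputs and 1.08, 1.07 and 0.82 in the pulldowns, a difference of 0.42 with every pulldown above every input. On the CPM scale, small subunit members without Rps3a1 summed to 48.2, 49.5 and 41.6 in the inputs and 29.3, 32.6 and 36.0 in the pulldowns, while large subunit members summed to 76.2, 75.0 and 56.8 against 62.0, 68.6 and 63.5. The sums were looked at after the data were seen and were not tested.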
